A study of Homo sapiens with 8 samples.

Results

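The genes described here are those of the caveolin and caveola coat: the caveolins CAV1 and CAV2, the cavin gene CAVIN1, the neck ATPase gene EHD2, and the F-BAR genes PACSIN2 and PACSIN3. They were chosen by symbol, with earlier results of the same comparison known, in which CAV1 had stood out in total RNA. Their differences between the groups are therefore given as a description without a test. All 6 genes were among the 18388 genes of the table, and all 6 passed the minimum of 100 reads in 3 or more of the 6 libraries compared, as did 10138 genes in all.

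The study asked how loss of CGGBP1, a protein that binds CGG repeats, changes transcription. SLAM-Seq, in which newly made RNA carries 4-thiouridine (4sU) that is read as T-to-C conversions, was performed in U-2OS Tet-ON cells, a human osteosarcoma line that expresses the tetracycline-controlled transactivator. Cells received 50 nM of a control siRNA (siControl) or of siRNA against CGGBP1 (siCGGBP1) for 72 h, and 75 µM 4sU for the last 60 min, with 3 replicates in each group. Further siControl libraries received 0 or 200 µM 4sU, 1 library each. All 8 libraries carry DMSO in their names, came from the same line, and were prepared from the 3′ ends of polyadenylated transcripts, so read counts were not divided by gene length. The study's methods speak of biological replicates, but the labels do not say whether these were separate cultures, so errors and p-values measure the spread between these samples only, and fewer cells and less RNA per cell cannot be told apart in bulk RNA.

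Caveolae are small flask-shaped pits of the plasma membrane that are abundant in mesenchymal, endothelial, fat and muscle cells, where they buffer membrane tension and take part in signalling and endocytosis. Caveolin-1 inserts into the inner leaflet and forms oligomers, caveolin-2 reaches the cell surface together with it, and cavin-1 coats the cytosolic face so that the membrane bends. EHD2 forms rings around the caveola neck and holds it at the surface, while the PACSIN proteins, also named syndapins, sense and shape membrane curvature there.

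CAV1 and CAV2 are neighbours on chromosome 7 and are read in the same direction. Because CGGBP1 binds CGG repeats, the bases before their start sites are shown, with each CGG, or CCG as the same triplet on the other strand, in capitals (searched left to right without overlap). The sequences come from the RefSeq promoter table for GRCh38.p14, plus strand. That of CAV1 ends before the first base of its annotated gene body. That of CAV2 ends before its main start site, as its annotated gene body begins farther upstream. The stretches are chr7:116524759-116524993 for CAV1 and chr7:116499488-116499737 for CAV2.
CAV1: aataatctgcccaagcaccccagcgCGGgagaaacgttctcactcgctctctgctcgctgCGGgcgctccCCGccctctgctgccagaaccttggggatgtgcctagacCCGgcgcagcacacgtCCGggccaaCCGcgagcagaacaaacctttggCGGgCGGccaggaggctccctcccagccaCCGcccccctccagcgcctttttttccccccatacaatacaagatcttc
CAV2: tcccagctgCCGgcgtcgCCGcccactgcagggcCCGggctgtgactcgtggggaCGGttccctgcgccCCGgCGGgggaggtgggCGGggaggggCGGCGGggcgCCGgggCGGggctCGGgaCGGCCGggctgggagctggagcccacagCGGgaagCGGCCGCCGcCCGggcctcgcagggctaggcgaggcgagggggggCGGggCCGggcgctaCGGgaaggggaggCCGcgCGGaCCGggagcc
The CAV1 stretch held 9 triplets in 235 bases at 64.3% G and C, and none stood next to another in the same orientation. The CAV2 stretch held 25 triplets in 250 bases at 83.2% G and C. Its longest tracts, counted within the same orientation, were CGGCGG and CCGCCG, each of 2 triplets in a row. Among all 35116 RefSeq windows of 300 bases (250 before and 50 after a start site), 29.6% held at least 2 triplets in a row and 6.21% at least 3, and the median window held 8 triplets. A further CAV1 start site, 1326 bases downstream of the main one, had a window with 22 triplets and a longest tract of 2. The EHD2 window held 18 triplets and the PACSIN2 window at the annotated 5′ end 19, each with a longest tract of 2. No window named here held 3 in a row in the same orientation. Binding of CGGBP1 was not measured in these libraries.

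The libraries compared held between 10127519 and 14221516 reads in genes, the library without 4sU held 19011714 and that with 200 µM 11341561. CGGBP1 was at 108.1, 95.0 and 78.0 CPM (counts scaled to 1 common library size) in siControl and at 18.6, 10.4 and 31.5 CPM in siCGGBP1, so the targeted transcript was lower in each library labelled as knockdown. Of 8 mesenchymal and osteoblast markers 7 were listed and 4 (VIM, COL1A1, RUNX2 and SPARC) exceeded 10 CPM in a library, while the later osteoblast genes SP7, ALPL and BGLAP stayed between 0 and 3.92 CPM. The summed level of the 7 ranged from 3522.8 to 4447.6 CPM in siControl and from 5421.6 to 7290.8 CPM in siCGGBP1, and its part in the differences below was not tested. Markers of other cell types rich in caveolae were at or near 0, with summed levels of at most 2.62 CPM for the 4 listed endothelial genes, 1.0 CPM for the 2 adipocyte genes and 1.76 CPM for the 2 muscle genes in any of the 6 libraries. The 3 listed leukocyte genes summed to at most 0.703 CPM, and the 3 epithelial genes to between 9.44 and 19.6 CPM. Of these, EPCAM ranged from 4.62 to 13.3 CPM, above 10 CPM in siCGGBP1 replicates 1 and 3. CLDN4 ranged from 1.64 to 6.34 CPM, and CDH1 was at 0 throughout.

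In siControl cells the 6 genes fell into 2 levels, which the choice of genes did not use. CAV1 stood at 780.6 ± 67.7 CPM (SD, n = 3), rank 156 from the top and above 98.5% of the genes tested. CAVIN1 stood at 678.1 ± 197.7 CPM, rank 187, and its range of 450.0 to 800.8 CPM overlapped that of CAV1, 735.5 to 858.5 CPM. The 2 main coat components were thus among the abundant transcripts of these cells and did not differ beyond their spread. The other members were lower by more than 10-fold: PACSIN3 at 58.0 ± 12.1, PACSIN2 at 56.5 ± 7.0, CAV2 at 42.8 ± 5.78 and EHD2 at 36.7 ± 13.3 CPM. Each of these neighbours in the order overlapped the next, and all 4 lay between 46.8% and 63.0% of the way up the genes tested.

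**Figure D1:**
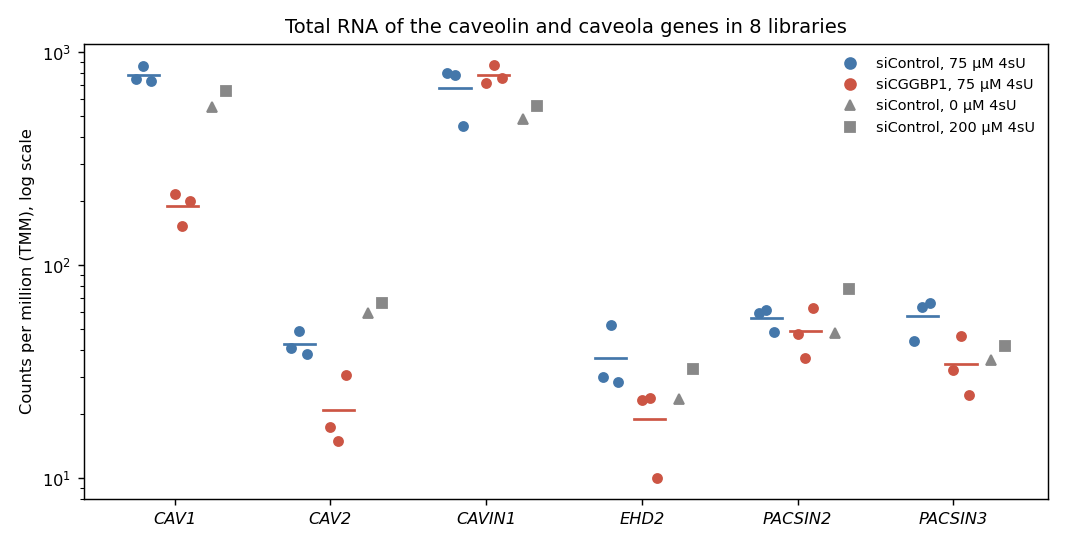
Total RNA of the 6 genes in CPM on a log axis, with TMM scaling over all 8 libraries. Points are libraries and bars are means of 3 libraries. The siControl means of CAV1 and CAVIN1 sit more than 10-fold above the others, and CAV1, CAV2 and EHD2 are lower in every siCGGBP1 library than in every siControl library at 75 µM 4sU.

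CAV1 and CAV2 RNA were both lower after CGGBP1 knockdown, and CAV1, the caveolin without which caveolae do not form in most cells, was lower by far more than the spread. Total CAV1 (ENSG00000105974, GRCh38 chr7:116524994-116561179, plus strand) was at 8612.5, 9842.0 and 8405.5 normalized reads in siControl and at 2463.6, 1728.0 and 2292.4 in siCGGBP1. Normalized reads are counts scaled to the mean size of the 6 libraries. The groups did not overlap, and the means of 8953.3 ± 776.6 and 2161.4 ± 384.9 (SD, n = 3) differed by a log2 fold change of -2.05 (SE 0.19), or 4.14-fold. The siControl libraries with 0 and 200 µM 4sU, which the choice of genes did not use, held 556.0 and 660.4 CPM. Both were below the 3 labelled siControl libraries and above all siCGGBP1 libraries, which held 153.1 to 216.4 CPM.

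Total CAV2 (ENSG00000105971, chr7:116287380-116508541, plus strand), whose product travels to the surface with caveolin-1, was at 469.6, 565.3 and 437.3 normalized reads in siControl. It was at 197.3, 167.6 and 352.9 in siCGGBP1, with replicate 3 closest to the controls but still below all of them. The means were 490.7 ± 66.6 and 239.3 ± 99.5, a log2 fold change of -1.03 (SE 0.39), or 2.05-fold. With 0 and 200 µM 4sU CAV2 was at 59.5 and 66.7 CPM, above each of the 3 labelled siControl libraries (38.3 to 49.3 CPM) and each siCGGBP1 library (14.9 to 30.6 CPM).

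CAVIN1, the gene of the cavin that coats the same membrane, did not follow the caveolins. Total CAVIN1 (ENSG00000177469, chr17:42402449-42423256, minus strand) was at 9221.9, 8982.2 and 5142.8 normalized reads in siControl and at 8187.5, 9863.7 and 8687.8 in siCGGBP1. The groups overlapped, with siControl replicate 3 the lowest of all, and the means of 7782.3 ± 2289.0 and 8913.0 ± 860.5 gave a log2 fold change of 0.20 (SE 0.21). Without siControl replicate 3 the value was -0.03, so its sign rested on that library.

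The ratio of reads within a library does not depend on library scaling. CAV1 over CAVIN1 was 0.934, 1.10 and 1.63 in siControl and 0.301, 0.175 and 0.264 in siCGGBP1, a mean of 1.22 ± 0.367 against 0.247 ± 0.0646. The libraries with 0 and 200 µM 4sU gave 1.14 and 1.19, within the siControl range. CAV1 over CAV2 was 18.3, 17.4 and 19.2 in siControl and 12.5, 10.3 and 6.50 in siCGGBP1, without overlap. Here the libraries with 0 and 200 µM 4sU gave 9.35 and 9.90, which lie among the siCGGBP1 values, so this ratio also differed between siControl libraries of different 4sU concentration. CAV2 over CAVIN1 was 0.0509, 0.0629 and 0.0850 in siControl, 0.0241, 0.0170 and 0.0406 in siCGGBP1, and 0.122 and 0.120 with 0 and 200 µM 4sU.

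EHD2, which holds caveolae at the surface, was lower in siCGGBP1 among the genes of the caveola neck, and the F-BAR genes were less clear. Total EHD2 (ENSG00000024422, chr19:47713422-47743134, plus strand) was at 344.3, 596.6 and 322.3 normalized reads in siControl and at 264.0, 267.3 and 115.1 in siCGGBP1. The groups did not overlap, and the log2 fold change was -0.97 (SE 0.45), or 1.95-fold, from 421.1 ± 152.4 to 215.4 ± 86.9. The siControl library without 4sU, at 23.6 CPM, nevertheless fell among the siCGGBP1 libraries (9.99 to 23.7 CPM), while that with 200 µM stood at 32.6 CPM.

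Total PACSIN3 (ENSG00000165912, chr11:47177522-47186443, minus strand) was at 507.8, 730.1 and 756.4 normalized reads in siControl and at 365.8, 523.0 and 283.6 in siCGGBP1. It was lower in 8 of 9 pairs of libraries, 1 from each group, with a log2 fold change of -0.77 (SE 0.33) and means of 664.7 ± 136.6 and 390.8 ± 121.6. The libraries with 0 and 200 µM 4sU, at 35.7 and 41.6 CPM, lay within the siCGGBP1 range of 24.6 to 46.3 CPM. Total PACSIN2 (ENSG00000100266, chr22:42835412-43015149, minus strand) was at 689.4, 702.3 and 554.2 normalized reads in siControl and at 539.5, 411.6 and 727.8 in siCGGBP1. The PACSIN2 groups overlapped, with the highest value in siCGGBP1 replicate 3, and the log2 fold change was -0.21 (SE 0.30).

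A gene was called where its adjusted p fell below 0.05 and its log2 fold change lay beyond 1 in either direction (edgeR quasi-likelihood test over all genes). CAV1 was the member called lower in total RNA, 1 of 6, beside 97 of 10138 genes, or 0.957%. None of the 6 was called higher, beside 46 genes, or 0.454%. Every siCGGBP1 library was below every siControl library for 3 of the 6 (CAV1, CAV2 and EHD2), beside 12.1% of the genes tested. Since the genes were chosen from this contrast, nothing is read from these counts. The log2 fold change was below 0 for 5 of the 6, with a median of -0.87, beside a median of 0.00 over all genes tested.

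**Figure D2:**
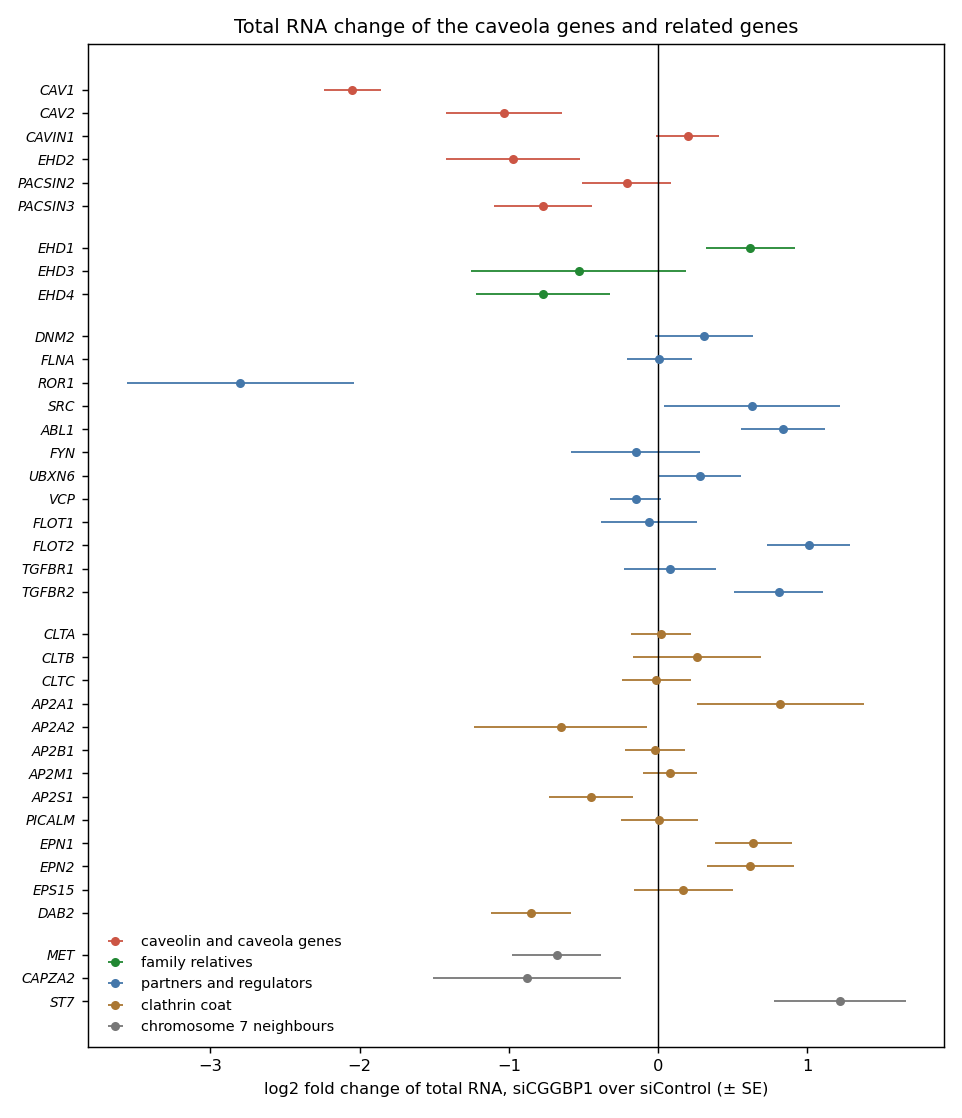
Log2 fold change of total RNA (siCGGBP1 over siControl, 3 libraries each) with its standard error for the 6 genes and for the 31 related genes tested. CAV1 lies at -2.05 and CAVIN1 at 0.20. ROR1 at -2.80, which passed the read minimum through siControl only, is the lowest related gene.

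Newly synthesized RNA separates what was made in the last 60 min from RNA made earlier. For CAV1 it was at 390.1, 779.5 and 458.1 normalized reads in siControl and at 189.9, 145.7 and 232.0 in siCGGBP1. The groups did not overlap, and the means of 542.6 ± 208.0 and 189.2 ± 43.2 gave a log2 fold change of -1.52 (SE 0.68), or 2.87-fold. Pre-existing CAV1 RNA, the rest of the reads, was at 8410.8 ± 581.0 and 1972.2 ± 354.0, 4.26-fold apart. The new reads are the total reads times the estimated ratio, and the CAV1 conversion rate in siControl, 0.259 ± 0.0507 per 100 T, was near the rate of 0.264 without 4sU, so the direction of new CAV1 RNA is less certain than that of the total.

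New CAVIN1 RNA was at 462.0, 1047.3 and 872.7 normalized reads in siControl and at 895.7, 1150.1 and 1284.1 in siCGGBP1. It was higher in 8 of 9 pairs with overlapping groups, and the log2 fold change was 0.48 (SE 0.37). New CAV2 RNA was at 20.5, 36.5 and 76.3 in siControl and at 54.9, 36.5 and 0 in siCGGBP1, too scattered for a direction: the log2 fold change of -0.54 (SE 2.44) became 0.10 without siControl replicate 3 and 0.05 without siCGGBP1 replicate 3.

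EHD2, PACSIN2 and PACSIN3 gave too few new reads for a fold. New EHD2 RNA was at most 18.9 normalized reads and 0 in 4 of 6 libraries, and new PACSIN2 RNA at most 45.5. New PACSIN3 RNA was at 133.1 in siControl replicate 3, at 0.305 in replicate 1 and at 0 in the other 4 libraries. That library alone held 74 PACSIN3 reads with at least 2 conversions among 753.3 reads, against 0 in every other library.

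In new RNA edgeR called 5 of 10138 genes in either direction, or 0.0493%, and none of the 6 members. All siCGGBP1 libraries were below all siControl libraries for CAV1 among the 6, beside 4.47% of the genes tested.

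**Figure D3:**
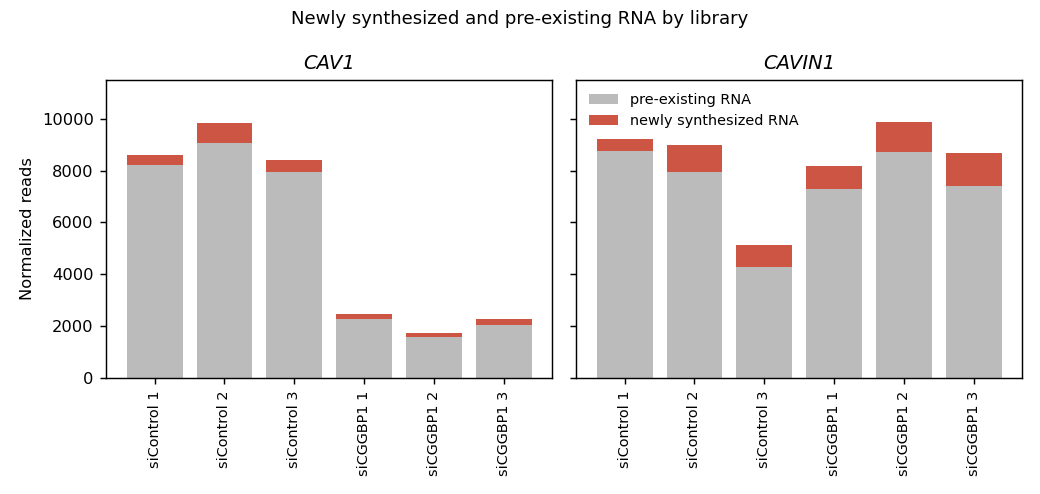
Newly synthesized (red) and pre-existing (grey) normalized reads of CAV1 and CAVIN1, stacked for each of the 6 libraries. Both parts of CAV1 are lower in the 3 siCGGBP1 libraries, while the total of CAVIN1 is lowest in siControl replicate 3 at 5142.8 reads.

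The new-to-total RNA ratio gives the share of a gene's RNA made during labelling. In siControl, CAV1 stood at 4.53, 7.92 and 5.45% (5.97 ± 1.75%, SD, n = 3), and CAVIN1 at 5.01, 11.7 and 17.0% (11.2 ± 5.99%). CAVIN1 was above CAV1 in each of these 3 libraries, but in replicate 1 the 5% and 95% posterior quantiles deposited as credible limits overlapped, 3.96 to 5.18% for CAV1 and 4.36 to 5.74% for CAVIN1. The order was the other way at 200 µM, with CAV1 at 18.6% and CAVIN1 at 12.9% in a single library, and in reads with at least 2 conversions, given below. No order of the 2 genes is therefore read from the ratio. CAV2 stood at 4.37, 6.45 and 17.4%, PACSIN2 at 2.19, 3.01 and 0%, EHD2 at 2.52, 0 and 0%, and PACSIN3 at 0.06, 0 and 17.6%. The ratios of these 4 less abundant genes scattered by more than the differences between them. The median ratio of all genes tested was 3.82, 4.74 and 0% in the same libraries, with 56.9% of genes at a ratio of 0 in replicate 3.

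In siCGGBP1 the CAV1 ratio was 7.71, 8.43 and 10.1% (8.75 ± 1.24%), overlapping siControl at 1 value, replicate 2 with 7.92%. The CAVIN1 ratio was 10.9, 11.7 and 14.8%, inside the siControl range. The CAV2 ratio was 27.8, 21.8 and 0%. Ratios of the remaining genes were 0% in 7 of 9 siCGGBP1 values, the exceptions being EHD2 at 7.17% in replicate 1 and PACSIN2 at 11.1% in replicate 2. Among all genes tested, 31.9, 29.6 and 58.5% were at a ratio of 0 in siCGGBP1 replicates 1, 2 and 3, so values of 0% are not particular to these genes.

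**Figure D4:**
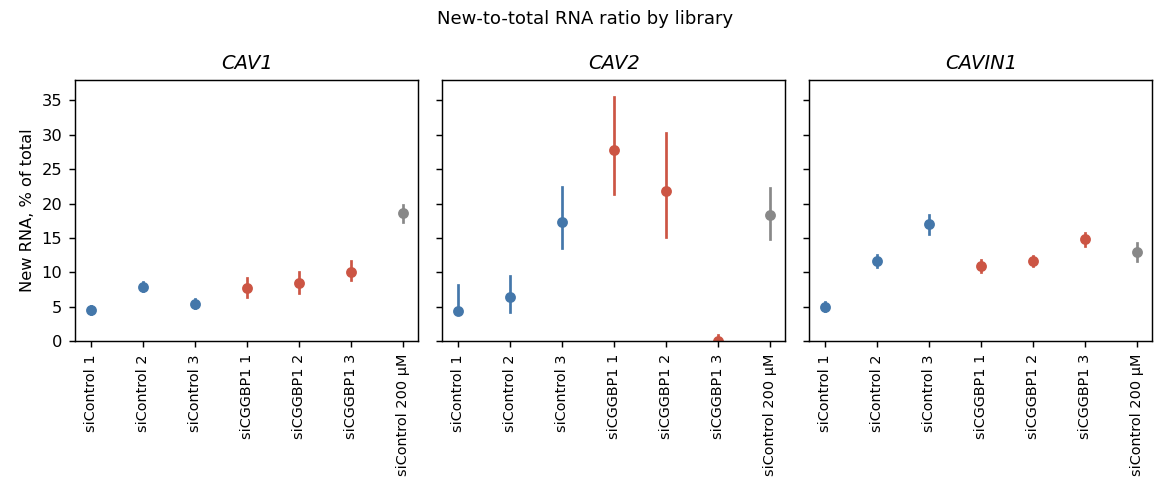
New-to-total RNA ratio in percent for CAV1, CAV2 and CAVIN1, with points for the estimate and lines for its 5% and 95% posterior quantiles in each library (blue siControl and red siCGGBP1 at 75 µM 4sU, grey siControl at 200 µM). CAV1 is at 18.6% with 200 µM. CAV2 is at 0% in siCGGBP1 replicate 3, where 58.5% of the genes tested were at 0%.

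The conversions behind these ratios were examined for each gene. CAV1 had 0.250, 0.313 and 0.213 T-to-C conversions for each 100 T positions covered in siControl and 0.370, 0.521 and 0.327 in siCGGBP1. Without 4sU it had 0.264, from 1113 conversions, so 2 of the 3 labelled siControl libraries lay below the unlabelled one. The rate over all genes without 4sU was 0.0638, and 92.0% of the genes tested had a lower unlabelled rate than CAV1. CAVIN1 likewise had 0.345 without 4sU, above 94.1% of the genes tested, against 0.247, 0.391 and 0.452 in siControl.

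Reads with at least 2 conversions separated labelled from unlabelled CAV1. They made up 12.6, 16.9 and 6.21 per 1000 CAV1 reads in siControl and 21.9, 26.4 and 21.5 in siCGGBP1, beside 0.554 without 4sU. For CAVIN1 they made up 5.77, 5.22 and 6.05 per 1000 in siControl, 20.9, 11.3 and 0.568 in siCGGBP1, and 0.631 without 4sU. CAVIN1 in siCGGBP1 replicate 3 was thus at the unlabelled level by this measure, while its ratio there was 14.8%. CAV2, EHD2, PACSIN2 and PACSIN3 had 0.0117, 0.0152, 0.0191 and 0.00784 conversions per 100 T without 4sU, below the rate over all genes.

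Of the other genes of the caveola coat, none reached the read minimum. CAV3, the muscle caveolin, was at 0 in the 3 siControl libraries and at 17.3, 0 and 51.8 normalized reads in siCGGBP1. CAVIN2, a cavin of endothelium and lung, was at 77.5, 61.2 and 107.4 in siControl and at 55.2, 9.92 and 0 in siCGGBP1. CAVIN3 stayed at or below 15 and the muscle gene CAVIN4 at or below 51.2 normalized reads. CAV1, CAV2 and CAVIN1 were accordingly the coat genes measured in these cells.

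Close relatives of the neck and F-BAR genes were compared next. EHD1, an ATPase of endosome recycling, had a log2 fold change of 0.62 (SE 0.30) with an edgeR adjusted p of 0.332. EHD4 was at 343.9, 372.7 and 342.4 normalized reads in siControl and at 244.4, 278.7 and 99.5 in siCGGBP1, a log2 fold change of -0.77 (SE 0.45) with an edgeR adjusted p of 0.435. EHD3 had -0.53 (SE 0.72, edgeR adjusted p 0.785), and PACSIN1 was below the read minimum. None of the 3 tested relatives passed the test, beside 0.957% of all genes tested called lower and 0.454% called higher.

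Of 13 listed partners and regulators of caveolae 12 were tested, and their median log2 fold change was 0.18. EdgeR called none, beside 0.957% of all genes tested called lower and 0.454% called higher. ROR1, a receptor described as a scaffold for caveolin and cavin, was at 160.8, 178.9 and 398.6 normalized reads in siControl and at 55.2, 38.7 and 12.6 in siCGGBP1. It was lower in 9 of 9 pairs, beside 12.1% of the genes tested, with a log2 fold change of -2.80 (SE 0.76). Its edgeR adjusted p was 0.0863. ROR1 reached 100 reads only in siControl, at 139.0, 187.0 and 397.0 raw reads against 48.0, 39.0 and 15.3 in siCGGBP1. The filter thus admitted ROR1 through the group where it was higher, so nothing is read from its direction. FLOT2, a flotillin of other membrane microdomains, was at 545.2, 694.2 and 535.0 in siControl and at 1237.5, 1511.7 and 819.9 in siCGGBP1. Its log2 fold change was 1.01 (SE 0.28) with an edgeR adjusted p of 0.0948, and its partner FLOT1 had -0.06 (SE 0.32). With the minimum of 100 reads and all 6 libraries neither gene passed. ROR1 was called with a minimum of 1 read (log2 fold change -2.82, edgeR adjusted p 0.0348). FLOT2 was called when siCGGBP1 replicate 3 was left out (log2 fold change 1.22, edgeR adjusted p 0.0315, edgeR range over its alternatives 0.0315 to 0.288).

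Among the kinases, ABL1, which links caveolae to actin, had a log2 fold change of 0.84 (edgeR adjusted p 0.151), SRC, which phosphorylates caveolin-1, 0.63 (0.658) and FYN -0.15 (0.905). TGFBR2, a receptor taken up in part through caveolae, had 0.81 (edgeR adjusted p 0.193) and TGFBR1 0.08 (0.93). Dynamin-2 (DNM2), which cuts vesicles from the membrane, had 0.31 (edgeR adjusted p 0.697), and filamin A (FLNA), which ties caveolae to stress fibres, 0.01 (0.993). VCP and its cofactor UBXN6, which act in caveolin-1 turnover, had -0.15 (edgeR adjusted p 0.732) and 0.28 (0.68). INSR did not reach the read minimum.

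The clathrin coat forms the other well known endocytic pit and was listed for comparison. Of its 14 genes 13 were tested, with a median log2 fold change of 0.02. None was called, beside 0.957% of all genes tested called lower and 0.454% called higher. Clathrin heavy chain CLTC had a log2 fold change of -0.01 (SE 0.23), light chain CLTA 0.02 (SE 0.20) and the adaptor subunit AP2M1 0.08 (SE 0.18). Higher values were measured for the epsins EPN1, 0.64 (SE 0.26, edgeR adjusted p 0.238), and EPN2, 0.62 (SE 0.29, 0.306). The adaptor subunit AP2A1 had 0.82 (SE 0.56, edgeR adjusted p 0.509). The adaptor DAB2 was at 1314.5, 1232.9 and 873.5 normalized reads in siControl and at 750.0, 619.8 and 532.6 in siCGGBP1. Its log2 fold change of -0.85 (SE 0.27) had an edgeR adjusted p of 0.133.

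Over all 41 related genes, 31 were tested and 0 were called by edgeR, with 8 at an unadjusted p under 0.05 (5 higher and 3 lower), beside 16.4% of all genes tested. With 0.957% of all genes tested called lower and 0.454% called higher, 0 calls among 31 genes do not show that the lists were unaffected. DESeq2 also called 0 of the 31 by the same rule. It gave an adjusted p of 0.0239 for FLOT2 and 0.0486 for DAB2, whose folds were not above the limit, and no adjusted p for ROR1.

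Genes around CAV1 on chromosome 7 were examined because CAV1 and CAV2 lie side by side. Distances are between the main start sites, 25.3 kb for CAV2, whose annotated gene body given above begins farther upstream. Within 1 Mb, 6 further genes of the table lay whole, and TFEC, TES and LINC01510 were below the read minimum. MET, a receptor tyrosine kinase that starts 147.2 kb beyond CAV1, was at 1064.1, 1161.6 and 1549.3 normalized reads in siControl and at 1043.3, 837.0 and 478.4 in siCGGBP1. Its log2 fold change was -0.68 (SE 0.30) with an edgeR adjusted p of 0.287. CAPZA2, an actin-capping subunit 337.6 kb away, had -0.88 (SE 0.63, edgeR adjusted p 0.536). ST7, 428.5 kb away, was higher in siCGGBP1, at 404.9, 373.9 and 334.5 against 136.5, 110.0 and 229.9, a log2 fold change of 1.22 (SE 0.44, edgeR adjusted p 0.178). None of these 3 neighbours was called, beside 0.957% of all genes tested called lower and 0.454% called higher.

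The genes whose level followed CAV1 most closely over the 8 libraries were described by Pearson's r of log2 CPM, which the difference between the groups in these shared libraries largely sets. They were KPNB1 (0.983), the nuclear import receptor importin beta, CD180 (0.975), CANX (0.975), the endoplasmic reticulum chaperone calnexin, DNM1L (0.973), which divides mitochondria, and the glycolytic enzyme gene PGAM1 (0.971). KPNB1 ran from 1279.5 to 1386.9 CPM in the labelled siControl libraries and from 441.2 to 647.8 CPM in siCGGBP1, and PGAM1 from 186.0 to 239.5 and from 52.8 to 68.4 CPM. CD180 was at or below 26.4 CPM in all 8 libraries. It ran from 14.9 to 21.6 CPM in the labelled siControl libraries of the comparison and from 0 to 0.404 CPM in siCGGBP1. The filter thus admitted CD180 through siControl only, so nothing is read from its likeness to CAV1. Among the caveola genes r with CAV1 was 0.838 for CAV2, 0.694 for EHD2, 0.616 for PACSIN3, 0.512 for PACSIN2 and -0.474 for CAVIN1. CAV2 ranked 248 among the genes tested in likeness to CAV1.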

How the data were processed

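Total and newly synthesized RNA of U-2OS Tet-ON cells were compared between 3 siControl and 3 siCGGBP1 libraries at 75 µM 4sU. The members and gene lists were chosen with earlier results of these data known. The expected counts of reads and conversions deposited by the authors came from GRAND-SLAM, after ribosomal reads were removed with Bowtie2 2.3.0 and the rest mapped with STAR 2.5.3a to GRCh38, and are not normalized. The new-to-total ratio, deposited by the authors as a fraction, was a maximum a posteriori estimate with the 5% and 95% posterior quantiles as credible limits, printed here in percent. No step removing PCR duplicates was given in the sources used here. The unit min2 was read from its name as reads with at least 2 conversions.

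Counts were rounded. Genes with at least 100 reads in 3 of 6 libraries were fitted with edgeR 4.0.16 in R 4.3.3 (quasi-likelihood, TMM factors, Benjamini-Hochberg over 10138 genes), with calls where the adjusted p fell below 0.05 and the log2 fold change lay beyond 1 in either direction. New reads were counts times the ratio, on total-read factors. DESeq2 1.42.0, other filters and scalings, a replicate block and leaving out each library were alternatives. Scripts were tested on simulated data. Named genes were the members, lists of coat genes, relatives, partners, clathrin genes, neighbours within 1 Mb of CAV1, CGGBP1, and the 5 genes most correlated with CAV1. PLVAP was not analysed here. Gene positions came from a GENCODE annotation of GRCh38. RefSeq promoter windows were used for 4 of the 6 genes. Depth ranged from 10127519 to 19011714 reads per library. The single 0 and 200 µM libraries entered no test.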

Additional observations from a re-analysis of the deposited data

Results flagged for a closer look

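Of the values outside the comparison that stood above their control, 4 were flagged. In the siControl library with 200 µM 4sU, which has no replicate, the CAV1 new-to-total ratio was 18.6% (credible limits 17.4 to 19.8%), above all 3 siControl libraries at 75 µM (4.53 to 7.92%). Over all genes this library had 0.218 conversions per 100 T, within the siControl range of 0.183 to 0.245 at 75 µM. Its reads with at least 2 conversions were 10.6 per 1000, below the 11.4 to 14.7 at 75 µM. An effect of the 4sU concentration on the CAV1 ratio was not tested. EHD2 stood at 34.1% there (25.5 to 44.6%) from 38 conversions in 371 reads, against at most 2.52% at 75 µM. None of these EHD2 reads held at least 2 conversions. CAV2, not flagged, stood at 18.3% (14.9 to 22.3%) in the same library, also above all siControl values at 75 µM. Its limits overlapped those of siControl replicate 3, at 17.4% (13.5 to 22.4%). PACSIN2 and PACSIN3 were at 0% with 200 µM 4sU.

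In the siControl library without 4sU, CAV1 had 0.264 conversions per 100 covered T and CAVIN1 0.345, while all genes together had 0.0638. Few of these reads held at least 2 conversions, 6 of 10833.0 for CAV1 and 6 of 9515.1 for CAVIN1.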

How the results depend on the processing

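The members' values are a description, since they were chosen from this contrast. The CAV1 log2 fold change of total RNA ranged from -2.15 to -1.92. CAV2 ranged from -1.42 to -0.84, EHD2 from -1.16 to -0.64, PACSIN3 from -1.04 to -0.57 and PACSIN2 from -0.44 to -0.04, and none of these 4 turned sign. CAVIN1 ranged from -0.03 to 0.33. In new RNA CAV1 ranged from -1.71 to -1.17, CAVIN1 from 0.21 to 0.73 and CAV2 from -1.27 to 0.10. The mean new-to-total ratio of CAVIN1 over that of CAV1 in siControl was 1.88, with 1.34 to 2.20 over the alternatives. Measures outside these alternatives gave the other order: reads with at least 2 conversions averaged 5.68 per 1000 for CAVIN1 and 11.9 for CAV1 in siControl, and the ratio at 200 µM was 12.9% and 18.6%.

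Counts of calls moved more. The 97 lower and 46 higher genes of total RNA became 205 and 166 with DESeq2, 206 and 121 with a minimum of 1 read, and 33 to 100 and 15 to 48 when 1 library was left out. The 2 lower and 3 higher genes of new RNA became 16 and 11 with DESeq2 and 7 and 11 with conversion counts. The posterior mean ratio gave 4 lower genes, TMM factors of new reads 1 higher gene, and leaving out 1 library 1 to 4 lower and 1 to 3 higher. Of the listed related genes 0 were called, 1 with a minimum of 1 read (ROR1, log2 fold change -2.82, edgeR adjusted p 0.0348, range over its alternatives 0.0348 to 0.242) and 0 to 1 when a library was left out (FLOT2). The cause of these moves was not tested.

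With the replicate number as a block, total RNA gave 107 lower and 54 higher genes, new RNA 1 lower and 1 higher, and CAV1 -2.06. Deviations of same-numbered libraries correlated at 0.109, 0.182 and 0.0885, and those of differently numbered libraries at -0.104 to -0.0244. Replicate 3 of siControl and of siCGGBP1 also had the most genes at a new-to-total ratio of 0, 56.9 and 58.5%. Libraries of the same number may thus share an effect, which was not tested, and the main fit held no block. CGGBP1, the targeted gene, was called in total RNA with and without the block. It was not called without siControl replicate 1 (log2 fold change -2.1, edgeR adjusted p 0.0632) or without siCGGBP1 replicate 1 (-2.16, 0.0851).

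Conversions of the less abundant genes varied widely between libraries of like read number, with 40 in 596 reads of PACSIN2 in siControl replicate 1 and 2 in 552 reads in replicate 3, and the cause was not tested. Credible limits cover the estimate within a library only.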
